A study of Mus musculus with 4 samples.

Results

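The 3 classes of ion channel described here are the potassium channels and their auxiliary subunits (gene symbols that begin with Kcn), the voltage-gated sodium channels (Scn followed by a digit) and the voltage-gated calcium channels (Cacn). They were chosen by symbol alone, from the probe sets that the array's annotation assigns to a single gene. The rule found 72 probe sets of 60 genes among 8252 genes with such a probe set: 42 potassium, 6 sodium and 12 calcium channel genes. Each gene is represented by its brightest probe set over the 4 arrays. Of the 60 genes, 36 reached the array-wide 40th percentile of mean signal and were tested, 25 of them potassium, 2 sodium and 9 calcium channel genes. The other 24 are called dim below.

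Wild-type C57Bl6 mice were killed at postnatal day 46, and RNA was taken from their visual cortex. Both groups share the treatment of the animals, which grew up in the dark, had 1 eye taken out at postnatal day 42 and then lived in a light-dark cycle for 4 days. The deprived group is cortex contralateral to the removed eye and the non-deprived group is cortex ipsilateral to it, with 2 arrays per group. The protocol names 5 mice and the design text speaks of pooled tissue, and no source used here gives how the mice were divided over the arrays. The spread between 2 arrays of a group may therefore be technical in part. Every p-value below measures only spread between arrays, for which the fit also draws on the other tested probe sets.

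Voltage-gated channels open when the membrane potential changes. Sodium channels carry the upstroke of the action potential, and potassium channels repolarise the membrane, set the resting potential and limit repetitive firing. Calcium channels admit the calcium that triggers transmitter release and signals to the nucleus. In cortical neurons the balance of these channels sets how readily a cell fires, and both neuronal activity and sensory experience are known to alter some of them.

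Promoter sequence is shown for the channel genes at which the comparison below gave its smallest p-values in each class, Kcna2 and Kcnj4 (potassium), Scn8a (sodium) and Cacna1b (calcium). RefSeq windows on GRCm38.p6 were at hand for 46 of the 60 genes, and each run is the 250 bases before a transcript start, 5′ to 3′ on the gene's strand. Capitals mark the letters of a cAMP response element (TGACGTCA) or its core (TGACG, which the full element contains), an AP-1 site (TGACTCA), an EGR site (GCGTGGGCG or GCGGGGGCG) or a GC box (GGGCGG), searched on both strands. An EGR match and a GC box overlap where they share bases.
Kcna2, chr3:107101317-107101566, plus strand: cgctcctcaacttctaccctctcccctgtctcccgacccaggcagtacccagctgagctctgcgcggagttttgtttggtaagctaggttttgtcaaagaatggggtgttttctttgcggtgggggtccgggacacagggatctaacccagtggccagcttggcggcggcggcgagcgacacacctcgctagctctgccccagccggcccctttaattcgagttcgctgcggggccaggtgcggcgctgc
Kcnj4, chr15:79505242-79505491, minus strand: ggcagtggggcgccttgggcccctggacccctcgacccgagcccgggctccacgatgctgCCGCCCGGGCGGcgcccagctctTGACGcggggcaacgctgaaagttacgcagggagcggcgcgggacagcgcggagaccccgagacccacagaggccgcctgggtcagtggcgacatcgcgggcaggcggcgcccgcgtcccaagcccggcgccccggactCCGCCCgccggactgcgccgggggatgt
Scn8a, the first of 2 windows, chr15:100870395-100870644, plus strand: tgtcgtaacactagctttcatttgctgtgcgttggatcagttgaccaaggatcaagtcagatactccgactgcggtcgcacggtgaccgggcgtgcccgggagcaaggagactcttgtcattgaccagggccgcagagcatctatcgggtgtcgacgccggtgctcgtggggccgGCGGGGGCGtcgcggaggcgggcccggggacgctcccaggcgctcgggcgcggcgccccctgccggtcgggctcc
Cacna1b, chr2:24763153-24763402, minus strand: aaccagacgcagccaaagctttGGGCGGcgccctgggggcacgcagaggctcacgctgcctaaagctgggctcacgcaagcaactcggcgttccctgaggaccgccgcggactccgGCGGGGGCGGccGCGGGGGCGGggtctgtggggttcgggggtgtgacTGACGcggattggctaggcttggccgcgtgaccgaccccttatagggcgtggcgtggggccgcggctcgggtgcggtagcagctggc
The windows of Kcna2, Kcnj4 and Scn8a lie wholly inside the RefSeq span of their gene, and 48 bases of that of Cacna1b do, so other transcripts of each gene start further upstream.

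The window of Kcna2 held none of these letters, that of Kcnj4 held 1 core element and 3 GC boxes, that of Scn8a 1 EGR match, and that of Cacna1b 2 EGR matches, 1 core element and 3 GC boxes. A match describes letters and is no evidence of binding, and a window without one says nothing of the factor. Over the 46 channel genes with a window, 27 held a GC box (58.7%, against 35.4% of all 27025 genes with a window), 12 a core element (26.1% against 19.8%), 5 an EGR match (10.9% against 3.47%), 1 an AP-1 site (2.17% against 5.16%) and 0 the full cAMP response element (1.77% of all genes). The EGR matches were in Cacna1b, Cacna2d1, Kcnk2, Scn7a and Scn8a, and the AP-1 site in Kcnk2. Over all 32851 windows, counted singly, the shares were 32.7% for a GC box, 17.8% for a core element, 3.06% for an EGR match, 4.46% for an AP-1 site and 1.55% for the full element.

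No channel gene passed the test between deprived and non-deprived cortex. The channel genes gave 0 calls of 36 at an adjusted p under 0.05 in limma's fit over 7458 probe sets, where 0.0885% of all 5647 tested genes were called, so a count of 0 is near the background. The lowest adjusted p of a channel gene was 0.698, for Kcna2. Among all 7458 probe sets 8 were called, all lower. At an unadjusted p under 0.05 there were 2 lower genes, Kcna2 and Kcnj4, and 0 higher, or 5.56% and 0% of the 36, against 3.19% and 1.74% of all tested genes. With the replicate number as a block the adjusted calls stayed at 0 and there were 5 genes at an unadjusted p under 0.05, Kcnj11, Cacna1b and Kcnn1 being added, the last of these higher. The background rose as well with the block, to 4.99% of all tested genes lower and 3.42% higher. The standard errors of the log2 differences ran from 0.16 to 0.64 with a median of 0.30. For 24 of the 36 genes the 95% interval lay within a 2-fold change in either direction, and for the other 12 it did not.

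More channel genes were lower than higher in the deprived cortex. The mean log2 difference was below 0 for 24 of the 36 genes (66.7%), against 49.2% of all tested genes. Both deprived arrays lay below both non-deprived arrays for 10 of the 36 (27.8%, against 16.4% of all tested genes). These were Kcna2, Kcna3, Kcnab3, Kcnj4, Kcnk2, Kcnma1, Kcnq1, Kcns2, Scn8a and Cacna1b. Both deprived arrays lay above both non-deprived arrays for 2, Kcnab2 and Kcnh2 (5.56%, against 15.4%). The other 24 overlapped. The median log2 difference was -0.13 over the 36 genes and 0.006 over all tested genes. Deprived array 2 moved these values most: without it 19 of the 36 were lower (52.8%, against 48.3% of all genes) and the median was -0.04. A difference of at least 1.5-fold in all 4 pairings of a deprived with a non-deprived array was seen for 1 lower gene, Kcna2, and 0 higher ones, where 1.24% and 0.266% of all tested genes reached it. Kcna2 passed the filter only through the non-deprived group, so this count supports nothing further. The gene is also 1 of the 24 and of the 10 above, and of those at an unadjusted p under 0.05. Those counts rest on it in part. The 1.5-fold count was 0 after quantile normalization, with a common median, with a pseudocount at the 40th percentile, and with the filter raised to the 60th, which removes the gene.

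**Figure D1:**
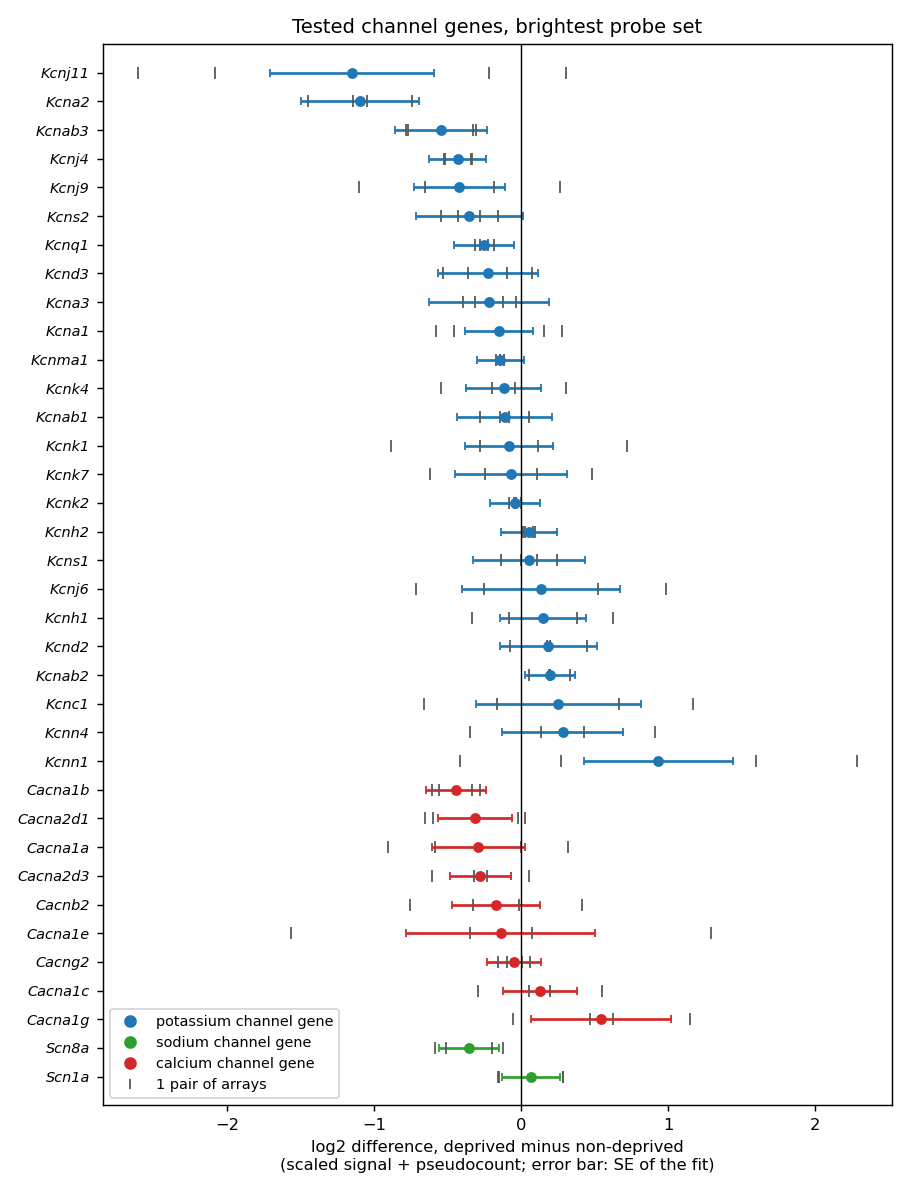
Log2 difference between deprived and non-deprived cortex for the 36 tested channel genes, coloured by class, with the SE of limma's fit as error bar and the 4 single pairs of arrays as ticks. The bars show the SE and not the 95% interval, which holds 0 for 34 of the 36 genes. All 4 ticks of Kcna2 lie below -0.74, and those of Kcnj11 and Kcnn1 are spread over both sides of 0.

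The voltage-gated potassium channels form their pore from 4 subunits of a family, and 11 of their 16 genes on the array were tested. Of these 6 were lower and 5 higher, with a median log2 difference of -0.15. The Shaker family (Kcna), low-threshold channels that sit along axons and hold back firing, gave 3 tested genes, all with a mean below 0. Kcna2 had signals of 112 and 168 in deprived cortex, arrays 1 and 2 in that order here and below, and of 322 and 413 in non-deprived cortex. Both deprived signals were thus under both non-deprived ones. Their mean of 140.3 lies below the threshold of 143 for dim genes, so Kcna2 was tested only through its non-deprived signals, and its fold and p rest on a group at the dim level. The log2 difference was -1.10 ± 0.40 (SE), a 2.14-fold difference on the log2(signal + 60.6) scale, with an unadjusted p of 0.019 and an adjusted p of 0.698. It lay between -0.74 and -1.45 in the 4 pairs and between -0.89 and -1.30 when any 1 array was left out, with a pseudocount of 1 it was -1.40, and with a pseudocount at the 40th percentile -0.85.

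Kcna1, the axonal partner of Kcna2, had signals of 984 and 1678 in deprived and of 1371 and 1503 in non-deprived cortex. The non-deprived arrays lay between the deprived ones, and the log2 difference was -0.15 ± 0.23 (SE, adjusted p = 0.999). It was 0.22 without deprived array 1 and -0.52 without deprived array 2. Kcna3, a Shaker subunit best known from lymphocytes and microglia, had 223 and 174 in deprived against 231 and 249 in non-deprived cortex, without overlap but with a difference of -0.22 ± 0.41. So the 3 genes shared a sign, and their sizes differed.

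Shaker channels carry cytoplasmic beta subunits, encoded by the Kcnab genes, that speed inactivation and aid delivery to the membrane. Kcnab3 had nearly equal signals of 274 and 269 on the deprived arrays and 353 and 508 on the non-deprived ones. All 4 pairs were lower, by -0.31 to -0.79, and the fitted difference was -0.55 ± 0.32 (SE, adjusted p = 0.984). Kcnab2, the main beta subunit of the brain, went the other way, with 2070 and 1876 in deprived and 1805 and 1631 in non-deprived cortex, a difference of 0.19 ± 0.17 (adjusted p = 0.999). A further probe set of Kcnab2, of the kind the maker marks as shared with related sequences, gave 0.38 ± 0.18 (adjusted p = 0.921), also with both deprived arrays higher. Kcnab1 gave -0.11 ± 0.32, with overlapping arrays, and its second probe set was dim, with a mean signal of 116. The beta subunits therefore had no common direction.

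The remaining voltage-gated families gave differences in both directions, none of which passed the test. Kcnd2 and Kcnd3, Shal-type pores of the dendritic A-type current, gave 0.18 ± 0.33 and -0.23 ± 0.34 (SE) at their brightest probe sets. The second probe set of Kcnd2 read 105 and 59.4 on the deprived and 213 and 217 on the non-deprived arrays. It reached the filter only through the non-deprived arrays, and its difference is not read here. It does enter the mean of all tested probe sets per gene, by which Kcnd2 stood at -0.39. Kcnc1, a Shaw-type pore that allows fast-spiking interneurons to fire at high rates, was the dimmest tested gene, with 151 and 239 in deprived and 72.7 and 275 in non-deprived cortex. Its difference of 0.25 ± 0.56 became -0.41 without non-deprived array 1 and 0.92 without non-deprived array 2, so its sign rests on single arrays.

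Kcns2, a silent subunit that joins and slows other channels, had 249 and 197 in deprived against 286 and 315 in non-deprived cortex, or -0.35 ± 0.36 (SE). Its relative Kcns1 gave 0.05 ± 0.38. Kcnq1, whose channel is best known from heart and inner ear, had 683 and 701 in deprived against 808 and 864 in non-deprived cortex. The 2 groups were far apart relative to the distance within each, at -0.25 ± 0.21 (adjusted p = 0.999). This is the brighter of 2 Kcnq1 probe sets. The other was dim, with a mean signal of 65.4 against 764, and its groups overlapped. The level of Kcnq1 and its lack of overlap thus rest on the brighter probe set alone. The ether-a-go-go family gave 0.05 ± 0.19 for Kcnh2, a slowly deactivating channel, with deprived signals of 960.5 and 914 just above the non-deprived 897 and 908, and 0.15 ± 0.29 for Kcnh1, with overlapping arrays.

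Inward rectifiers (Kcnj) hold the membrane near rest and pass less current when the cell depolarises. Of 11 such genes 4 were tested, and 3 of these were lower. Kcnj4, a strong inward rectifier of forebrain neurons, had 790.5 and 786 in deprived cortex and 1015 and 1161 in non-deprived cortex. The deprived arrays were nearly equal and both below the non-deprived ones, a 1.35-fold difference of -0.43 ± 0.19 (SE), with an unadjusted p of 0.047 and an adjusted p of 0.910. It kept its sign in all 4 pairs and, with 1 array left out, ran from -0.34 to -0.52. Kcnj9 and Kcnj6 encode subunits of the G-protein-gated channels through which transmitters slow neurons. Kcnj9 gave -0.42 ± 0.31 at its brightest probe set, with 362 and 737 in deprived and 846 and 605 in non-deprived cortex, and 0.04 without deprived array 1. Its second probe set, of nearly the same brightness, did not overlap: 485 and 497 in deprived and 807 and 708 in non-deprived cortex, a difference of -0.57 ± 0.23 (unadjusted p = 0.028, adjusted p = 0.830). Kcnj6 gave 0.13 ± 0.53, with 325 and 103 in deprived and 208 and 135 in non-deprived cortex, and its second probe set was dim.

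Kcnj11, the pore of the ATP-sensitive channel that couples metabolism to excitability, had the lowest mean difference of the 36 tested channel genes, -1.15 ± 0.56 (SE, adjusted p = 0.934). The signals were 844 and 113 in deprived and 674 and 994 in non-deprived cortex, so deprived array 2 alone was low. Without that array the difference was 0.04, and without deprived array 1 it was -2.34 with an adjusted p of 2.4e-04. That fit sets a lone deprived array against 2 others and assumes that it varies like them.

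Potassium channels opened by calcium couple firing to the after-hyperpolarisation, and 3 of their genes were tested. Kcnma1, the pore of the large-conductance BK channel, had signals of 3043 and 3104 on the deprived and 3367 and 3432 on the non-deprived arrays. Each group was tight and the groups did not overlap, yet the difference was small, -0.14 ± 0.16 (SE, adjusted p = 0.999), and lay between -0.12 and -0.17 in the 4 pairs. Kcnn1, a small-conductance channel gene, had the highest mean difference of the 36 tested channel genes, 0.93 ± 0.51 (adjusted p = 0.972). Its signals were 856 and 511 in deprived and 701 and 128 in non-deprived cortex. Non-deprived array 2 alone was low. Without it the difference was -0.07, and without non-deprived array 1 it was 1.94 with an adjusted p of 0.0058, again from a lone array. Kcnn4, the intermediate-conductance channel gene, gave 0.28 ± 0.41, and -0.11 without deprived array 1.

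Tandem-pore-domain channels (Kcnk) carry the leak current of the resting cell. All 4 tested genes had a mean below 0, from -0.12 ± 0.26 (SE) for Kcnk4 to -0.04 ± 0.17 for Kcnk2, none beyond its own SE. Kcnk2, a leak channel that responds to stretch and lipids, had 1560.0 and 1614 in deprived against 1656 and 1617 in non-deprived cortex. These groups did not overlap, but only just. Kcnk1 varied more within each group than between the groups, with 1559 and 1004 in deprived and 1903 and 924 in non-deprived cortex. Kcnk7 gave -0.07 ± 0.38.

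**Figure D2:**
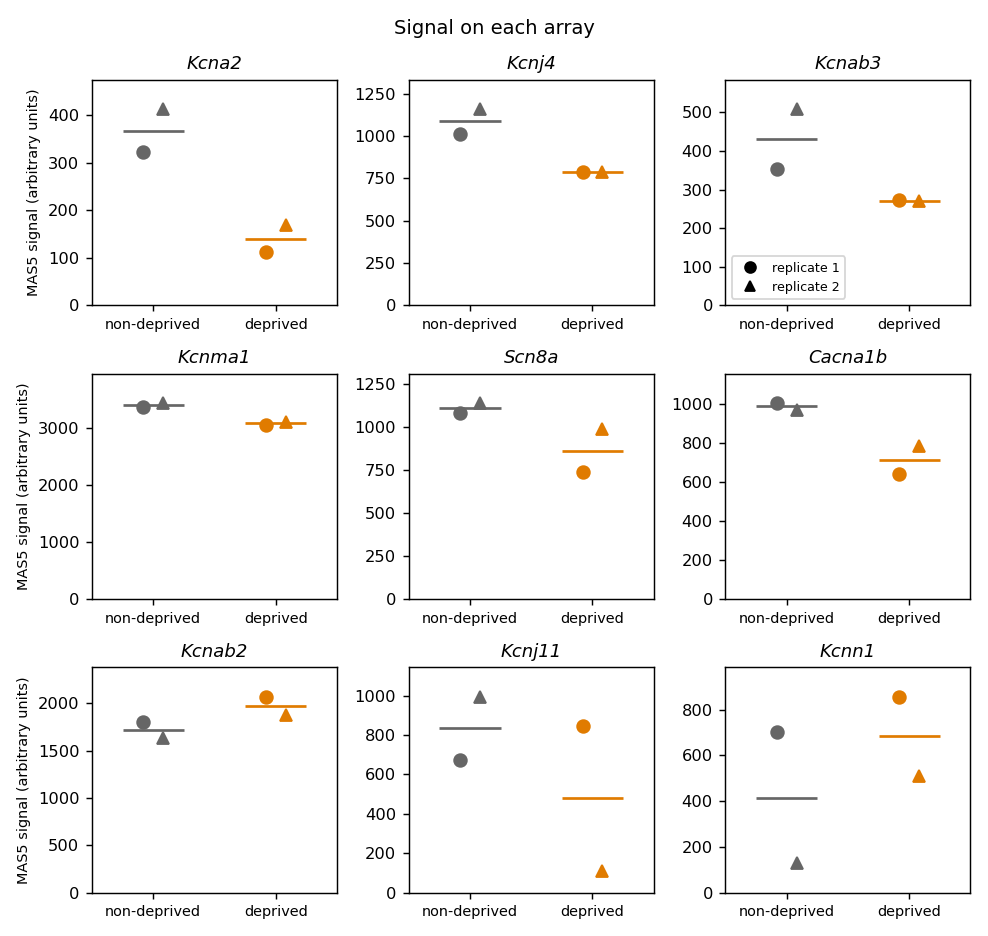
MAS5 signal on each of the 4 arrays for 9 channel genes, with circles for replicate 1, triangles for replicate 2 and a bar at each group mean. Kcna2, Kcnj4, Kcnab3, Kcnma1, Scn8a and Cacna1b are lower and Kcnab2 higher on both deprived arrays, while Kcnj11 and Kcnn1 differ through 1 low array each.

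Of the sodium channels only Scn1a and Scn8a were bright enough to test, so no statement on the class as a whole was possible. Scn8a, the main sodium channel of the axon initial segment and the nodes of Ranvier, had 740 and 987 in deprived and 1080.1 and 1140.2 in non-deprived cortex. Both deprived arrays were lower, with a difference of -0.35 ± 0.21 (SE, adjusted p = 0.984). Its size rested partly on deprived array 1: it was -0.16 without that array and -0.55 without deprived array 2. A further probe set of Scn8a was dim, with a mean signal of 12.5. Scn1a, the sodium channel that inhibitory interneurons depend on, had 1134 and 1559 in deprived and 1271 and 1267 in non-deprived cortex, a difference of 0.07 ± 0.20. Its brightest probe set is of a kind that may also match related transcripts. The second, with a mean signal of 419 against 1308, gave -0.22 ± 0.32 with overlapping arrays.

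The calcium channel genes comprised 5 tested pore subunits and 4 tested auxiliary subunits. The median log2 difference over the 9 was -0.17, with 7 lower and 2 higher. Cacna1b, the N-type pore that triggers transmitter release at many terminals, had signals of 640.0 and 788 on the deprived and 1007 and 972 on the non-deprived arrays. It was the 1 tested calcium channel gene whose groups did not overlap. The difference was -0.45 ± 0.21 (SE, unadjusted p = 0.052, adjusted p = 0.914). It was between -0.31 and -0.58 when any 1 array was left out. With the block its unadjusted p was 0.034 and its adjusted p 0.488.

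Cacna1a, the P/Q-type pore that shares the release site with Cacna1b, had 626 and 306 in deprived and 626 and 490.4 in non-deprived cortex. Deprived array 1 equalled non-deprived array 1, and the difference of -0.29 ± 0.32 (SE) was 0.16 without deprived array 2 and -0.75 without deprived array 1. Cacna1c, the L-type pore that signals from dendrites and cell bodies to the nucleus, gave 0.13 ± 0.25, and Cacna1e, the R-type pore, -0.14 ± 0.64. For Cacna1e the replicate numbers differed far more than the sides, with 324 and 305 on the arrays numbered 1 and 62.7 and 96.6 on those numbered 2. Its other probe set was dim, with a mean signal of 81.9. Cacna1g, a T-type pore that opens near rest and supports burst firing, was the highest of the 9 tested calcium channel genes at 0.55 ± 0.48 (adjusted p = 0.999), with 191 and 301 in deprived and 103 and 201 in non-deprived cortex. With 1 array left out it ran from 0.21 to 0.88, and Cacna1e was higher than Cacna1g without deprived array 2 (0.68 against 0.28) and without non-deprived array 1 (0.47 against 0.21).

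Auxiliary calcium channel subunits bring the pore to the membrane and shape its gating, and all 4 tested ones had a mean below 0. The alpha-2-delta genes Cacna2d1 and Cacna2d3 gave -0.31 ± 0.25 and -0.28 ± 0.21 (SE). Cacna2d1 had 576 and 599 in deprived and 942 and 587 in non-deprived cortex, so non-deprived array 1 alone was high, and the difference was 0.001 without it. Cacna2d3 had 868 and 1072 against 1030.3 and 1356, and was lower in 3 of the 4 pairs. Cacnb2, a cytoplasmic beta subunit, gave -0.17 ± 0.30, and Cacng2, which encodes stargazin, an AMPA receptor partner, gave -0.05 ± 0.18 with signals from 1051 to 1182 on all 4 arrays.

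The class medians stood at -0.11 for potassium, -0.14 for sodium and -0.17 for calcium channel genes, and no class was tested as a set. The potassium median was below 0 in each of the 4 pairs, from -0.20 to -0.05, and was -0.01 without deprived array 2. The calcium median was -0.30 and -0.33 in the pairs with deprived array 2 but 0.001 and -0.02 in those with deprived array 1. It was 0.16 without deprived array 2, -0.29 without deprived array 1, and -0.08 and -0.09 without non-deprived arrays 1 and 2. The sodium median, over 2 genes, was 0.06 without deprived array 1. The mean correlation of an array with the other 3 was 0.91 for deprived array 1 and 0.93 for each of the others.

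**Figure D3:**
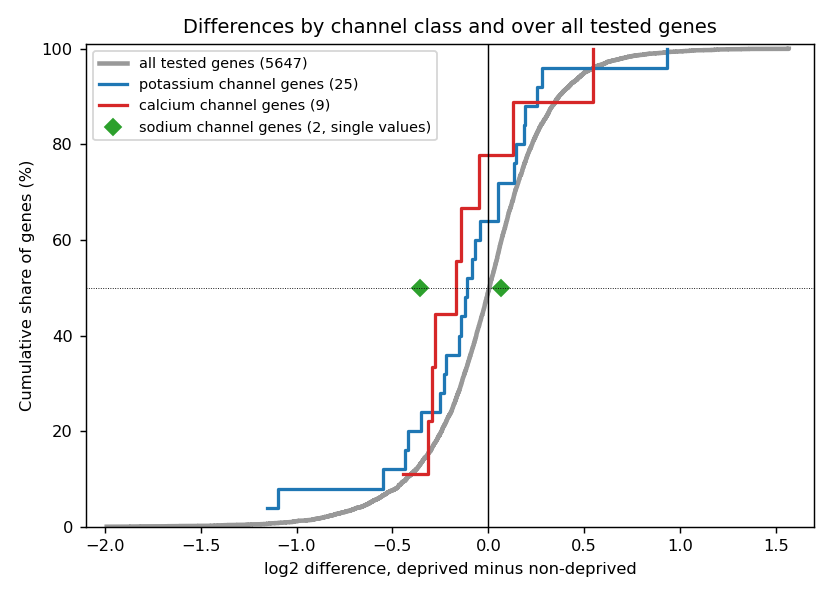
Cumulative share of genes against the log2 difference for all 5647 tested genes, 25 potassium and 9 calcium channel genes, with the 2 sodium channel genes as single points. The potassium and calcium curves cross 50% at -0.11 and -0.17, left of the 0.006 at which all tested genes do.

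The 24 dim genes had mean signals from 17.1 to 138 and were not tested, since at this level a signal may be background. They comprised 17 potassium channel genes (Kcna4, Kcna5, Kcna6, Kcna7, Kcnd1, Kcne1, Kcne1l, Kcnj1, Kcnj2, Kcnj3, Kcnj5, Kcnj8, Kcnj12, Kcnj15, Kcnk3, Kcnmb1 and Kcnu1), 4 sodium channel genes (Scn3a, Scn7a, Scn9a and Scn10a) and 3 calcium channel genes (Cacna1h, Cacna1s and Cacng1). Among them are genes known mainly from other tissues, such as Cacna1s and Cacng1 of skeletal muscle and Scn10a of sensory ganglia. The brightest 3 below the threshold of 143 were Kcnj3 at 138, Kcnd1 at 134 and Kcnj15 at 124, and the dimmest 3 above it were Kcnc1 at 184, Kcnj6 at 193 and Cacna1e at 197. Of the 24, both deprived arrays were lower for 4, higher for 5, and the groups overlapped for 15. Without the filter, 14 of all 60 channel genes were lower without overlap, a larger share than the 14.2% of all 8247 genes. The shares over dim genes alone were not counted, so these numbers are description only. Kcnj3, a subunit of the G-protein-gated channel that also uses Kcnj6 and Kcnj9, had 72.9 and 70.8 in deprived and 234 and 176 in non-deprived cortex, the lowest mean difference among the dim genes. Kcna6, a further Shaker subunit, read 107 and 20.6 in deprived and 122 and 139 in non-deprived cortex, and Kcna4 and Kcna5 overlapped, with means of 53.4 and 65.1. The leak channel gene Kcnk3 had 40.9 and 39.6 against 124 and 47.5, the sodium channel gene Scn3a a mean of 17.1, and the T-type pore gene Cacna1h a mean of 32.0. Kcnj8, the vascular ATP-sensitive pore, had 164 and 90.8 in deprived and 48.3 and 17.1 in non-deprived cortex.

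Genes that anchor channels or maintain the ion gradients were read from a list of 55, of which 31 were on the array under their own symbol and 28 were tested. None passed over all probe sets, and at an unadjusted p under 0.05 there were 5 lower and 1 higher of the 28, against 3.19% and 1.74% of all tested genes. The median was -0.08, with 17 lower and 11 higher. Atp2b2, a plasma membrane calcium pump, had 531 and 588 in deprived and 1150 and 1192 in non-deprived cortex, a difference of -0.99 with an adjusted p of 0.139. The pacemaker channel gene Hcn2 had 3172 and 3717 against 4604 and 5453, or -0.54 (adjusted p = 0.586), and its relative Hcn3 gave -0.45 (adjusted p = 0.910). The chloride exporter gene Slc12a5 gave -0.85 and the sodium pump subunit gene Atp1b2 -0.53 (adjusted p = 0.711 and 0.910). The 1 higher gene was Dlg4, the postsynaptic scaffold that binds Shaker channels, at 0.39 (adjusted p = 0.836).

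The tissue's neuron markers were well above the threshold for dim genes and were also lower in the deprived cortex. All 5 tested neuron markers had a mean below 0 (median -0.25), from -0.11 for Tubb3 to -0.68 for Nefl, and their summed signal was 27610.0 and 33541 on the deprived and 34196 and 37000.0 on the non-deprived arrays. Of 7 inhibitory markers 6 were lower (median -0.20), with a summed signal of 15327 and 18662 against 18749 and 20474, and of 4 excitatory markers 3 (median -0.22), with 5978 and 6683 against 7337 and 6886. The lowest inhibitory marker, Vip, read 80.4 and 88.5 in deprived and 313 and 230 in non-deprived cortex. It thus reached the filter only through its non-deprived signals. Gad2, the 1 higher inhibitory marker, reached the filter only through its deprived signals, at 162 and 185 against 110 and 158. Of 4 myelin markers 3 were higher (median 0.27), with 12147 and 11079 against 10231 and 9140. The 5 tested astrocyte markers had a median of -0.03, with a summed signal of 12467 and 14535 in deprived against 14172 and 13188 in non-deprived cortex, and the 5 tested microglia markers one of 0.06, with a summed signal of 4720.5 and 4949 in deprived against 4679 and 4690.0 in non-deprived cortex. The 3 tested vessel markers had a median of 0.20, with a summed signal of 958 and 792 in deprived against 694 and 810.5 in non-deprived cortex. The 5 tested markers of striatum, thalamus and hippocampus had a mean above 0 in each case (median 0.14), with a summed signal of 3309 on deprived array 1 and from 2382 to 2516 on the other arrays. Choroid plexus was represented by 1 tested gene, Folr1 (-0.22), with Ttr and Kl dim, and skeletal muscle by 2, Acta1 and Ckm, with a median of -0.24. No marker passed over all probe sets. The 5′ to 3′ signal ratio, a sign of RNA integrity, was 0.544 and 0.463 for actin on the deprived arrays and 0.638 and 0.632 on the non-deprived ones, and 0.745 and 0.689 against 0.875 and 1.07 for Gapdh. The part of the marker levels and of these ratios in the channel values was not tested. In tissue RNA, fewer cells of a type and less RNA per cell cannot be told apart.

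**Figure D4:**
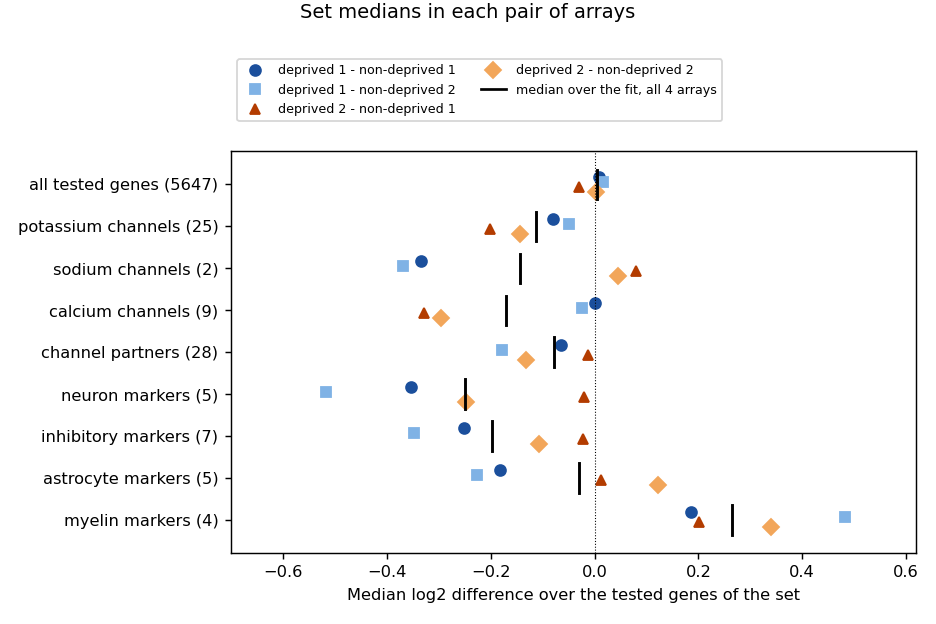
Median log2 difference of each gene set (number of tested genes in brackets) for the 4 pairings of a deprived with a non-deprived array, with the median of the fitted differences as a bar. Potassium channels lie below 0 in every pair, calcium channels mainly in the pairs with deprived array 2, and neuron markers most in those with deprived array 1.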

How the data were processed

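Signals of 4 Affymetrix arrays were used. Per the submitters' processing notes the authors made the intensities with MAS5, whose version, scaling target and detection calls no source used here gives. The deposited intensities, 1 per probe set for 12488 probe sets, had 2% trimmed means from 500.28 to 500.36 and medians from 189.9 to 246. Arrays were brought to equal trimmed means, 60.6 (the 20th percentile of mean signals) was added and log2 taken, which understates the change of dim genes. The 66 control probe sets and those with a mean below 143 (the 40th percentile) were left out, leaving 7458.

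Groups were compared with limma 3.58.1 in R 4.3.3, by lmFit and a trended eBayes. Tests were two-sided, p-values were adjusted by Benjamini-Hochberg over the 7458 and the threshold was 0.05. Residual degrees of freedom were 2, or 11.6 with the prior. The script was tested on simulated data. An exact permutation test of 2 arrays against 2 cannot give a two-sided p under 0.333, and the number of arrays limits the precision.

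Symbols came from the platform's annotation (10855 probe sets with 1 symbol, 396 with several, 1237 with none), and all 60 matched the RefSeq table for GRCm38.p6. Of the 60 genes 12 had several probe sets, 4 several tested ones. Named were a list of brain channels, every gene at an unadjusted p under 0.05 or past 1.5-fold in all pairs, and the 3 highest and lowest of each class, and other genes after their values were seen. Members and lists were chosen with earlier results of these data known.

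Same-numbered arrays were read as pairs from the design text's mention of cross-animal comparisons, and their deviations from the group mean had r = 0.27. The main fit has no block. Alternatives varied scaling, pseudocount, filter, trend, block, arrays and probe sets per gene.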

Additional observations from a re-analysis of the deposited data

How the results depend on the processing

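The count of channel genes at an adjusted p under 0.05 was 0 under every alternative that kept all 4 arrays, and from 0 to 1 with an array left out, the 1 being Kcnj11 without deprived array 1 and Kcnn1 without non-deprived array 1. The number of probe sets called, 8 in all, was 1 with quantile normalization and 3 with a common median as the scaling target, 40 with the replicate block, 0 without the variance trend, and from 5 to 90 with an array left out. The channel genes at an unadjusted p under 0.05, 2 in all, numbered 4 without a filter (2.45% of all genes lower and 1.66% higher), 5 with the replicate block (4.99% and 3.42%), 1 without the trend (3.12% and 1.36%), and from 2 to 6 with an array left out, where the 6 without deprived array 2 stand beside 7.1% and 5.42% of all genes. The single gene past 1.5-fold in all 4 pairs, Kcna2, no longer was after quantile normalization, with a common median, with a pseudocount at the 40th percentile or at a fold of 2 (0 genes each), nor with a filter at the 60th percentile, which removes it (0 genes). There were 2 genes without a filter, the dim gene Kcnj3 being added, beside 1.22% of all genes lower and 0.606% higher. At the smaller fold tried there were 2, for which the share over all genes is not given here. With an array left out there were from 2 to 4, where fewer pairs had to agree. The share over all genes rose as well, to between 2.67% and 5.88% lower and between 1.65% and 5.14% higher. The calcium median was -0.27 with a pseudocount of 1, -0.28 with the filter raised to the 60th percentile, and from -0.29 to 0.16 with an array left out. The potassium median ran from -0.157 to -0.0136 with an array left out, and the sodium median was 0.11 without a filter, which adds 4 dim genes. The count of 24 lower genes became 26 with the mean of all tested probe sets per gene (72.2%, against 50.1% of all genes). With an array left out it ran from 19 (52.8%, against 48.3%) to 26 (72.2%, against 52.6%). The 10 genes without overlap became 7 of 36 with a common median, beside a share of 11.7% of all genes. They became 12 of 36 with the probe set mean, beside a share of 16.9%. With the probe set mean, the 26 and the 12 rest in part on the second probe set of Kcnd2, which reached the filter only through the non-deprived arrays. These direction counts were added after the data were seen. Of 455 single-gene values under the alternatives, 449 kept their side of the threshold and, where they lay beyond 1 SE, their sign. A further 2 newly passed, and 4 reversed: Kcnj9 without deprived array 1 (range over the arrays left out -0.880 to 0.039), Kcnj11 without deprived array 2 (-2.34 to 0.040), Cacna2d1 without non-deprived array 1 (-0.629 to 0.0010) and Kcnn1 without non-deprived array 2 (-0.074 to 1.94). Among the 449, 25 changed sign within 1 SE of 0. The replicate block left the channel genes at an adjusted p under 0.05 at 0. A fit without 1 array takes its spread from the other group. Apart from effects of construction, the cause was not tested. Signal over background limits the 24 dim genes, which have no test.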
